A study of Mus musculus with 48 samples.

Results

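Krt7, Krt8, Krt18, Krt19, Cdx2, Gata2, Gata3, Tfap2c and Eomes, 9 genes that mark the trophectoderm and simple epithelia, were followed through every RNA-seq and Ribo-seq library of mouse embryonic stem cells (mESCs) that lacked or carried altered RNA-processing factors. The 9 genes were taken by symbol from a list drawn up with earlier results of these data known, and all of them were found among the 55335 genes of the tables. The group holds 4 keratins, the type II keratins Krt7 and Krt8 and the type I keratins Krt18 and Krt19, and 5 transcription factors.

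The trophectoderm is the first epithelium of the mouse embryo and gives rise to the placenta, while mESCs stand for the inner cell mass that it surrounds. Cdx2 sets up the trophectoderm program together with Gata3, Tfap2c and Eomes, and Gata2 acts later in trophoblast. Keratins work as pairs of a type I and a type II protein that assemble into filaments anchored at cell junctions, and Krt8 with Krt18 is the first pair made in the embryo, joined by Krt7 and Krt19 in trophoblast.

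The cells were male mESCs of a hybrid 129-C57BL/6 background with Cre-ERT2 at Rosa26, grown on gelatin with serum, LIF and 2 inhibitors (2i), and each line was a picked clone. NRDE2 and CCDC174 are proteins that contact U1 snRNA and 5′ splice sites, MTREX is the RNA helicase that feeds nuclear RNA to the exosome, and the study asked what their loss does to RNA processing and gene expression. Nrde2-KO cells carried conditional alleles and received 100 nM 4-hydroxytamoxifen (4OHT) for 4 d, Mtrex-KO cells received 100 nM for 3 d, and their WT controls were the same conditional lines without 4OHT. Nrde2-d200 cells lacked the N-terminal 200 amino acids of NRDE2, Nrde2-D174R cells carried the point mutation D174R, and both were compared with the same Nrde2 WT libraries as Nrde2-KO. Ccdc174-dTAG cells carried CCDC174 fused to the FKBP12F36V degron and received 500 nM dTAG-13 for 24 h, with the untreated fusion line as WT. A second RNA-seq experiment repeated the Nrde2 WT and Nrde2-KO pair. Further libraries of these cells and of the Ccdc174 line came from cells that received 0.1 mg/ml of the translation inhibitor cycloheximide (CHX) for 4 h. Ribo-seq measured ribosome footprints in Nrde2 WT and Nrde2-KO cells. Each of the 16 groups held 2 libraries, called replicates 1 and 2. The effect of 4OHT with Cre and the effect of losing the gene cannot be told apart, because no control received 4OHT.

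The RNA-seq libraries held 28683644 to 36272309 reads in genes and the Ribo-seq libraries 3475051 to 5035940, and levels are given as CPM, reads scaled to a common library total, divided by median-of-ratios factors computed here, called normalized CPM. The Mtrex-KO libraries stood apart. Reads in genes made up 72.1% of the total in replicate 1 and 82.7% in replicate 2 of Mtrex-KO, against 83.6 to 92.1% in the other 26 RNA-seq libraries, and their scaling factors were 0.681 and 0.828 against 0.920 to 1.14. A gene was called differentially expressed when its adjusted p was below 0.01 and its log2 fold change was above 1 or below -1. It passed the test when the adjusted p alone was met. Fold changes are on the scale of log2(normalized CPM + 0.25), which understates the change of genes near that level, and every adjusted p comes from limma across all genes of the fit.

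The targeted genes gave a partial check of the labels. Nrde2 averaged 41.1 ± 0.747 normalized CPM in WT cells (mean ± SD, 2 libraries) but 19.9 ± 0.811 after its deletion, and Mtrex averaged 115 ± 5.14 in WT cells but 44.0 ± 3.44 after its deletion. Reads were left in both, and whether they come from outside the deleted part or from undeleted alleles was not tested. In the CHX libraries labelled Nrde2-KO, Nrde2 was not lower (255 ± 6.03 against 235 ± 13.0), so the counts did not check these libraries. The untreated Nrde2 values come from a single experiment, and none is given here for the other untreated experiment or for Ribo-seq. Ccdc174 RNA was 36.8 ± 2.03 in Ccdc174-dTAG and 28.3 ± 0.00741 in WT, which checks nothing, because the degron acts on the protein.

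The members lie at separate loci in the GRCm38 (mm10) build. Krt8 (ENSMUSG00000049382, chr15:101996698-102004482, minus strand) and Krt18 (ENSMUSG00000023043, chr15:102028180-102032027, plus strand) are neighbors with 23697 bases between them, and Krt7 (ENSMUSG00000023039, chr15:101411043-101430313, plus strand) lies on the same chromosome. Krt19 (ENSMUSG00000020911) is at chr11:100140810-100148665 on the minus strand. Among the transcription factors, Cdx2 (ENSMUSG00000029646) is at chr5:147300805-147307270 on the minus strand, Gata2 (ENSMUSG00000015053) at chr6:88193891-88207032 on the plus strand and Gata3 (ENSMUSG00000015619) at chr2:9857078-9890034 on the minus strand. Tfap2c (ENSMUSG00000028640) is at chr2:172549593-172558622 and Eomes (ENSMUSG00000032446) at chr9:118478212-118486132, both on the plus strand.

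Promoter windows of 250 bases before to 50 after a RefSeq start (GRCm38.p6) were held for 7 of the 9 members. Printed here are those of Krt8 and Krt18, the keratin pair with the most RNA, and of Gata3, the member that was differentially expressed in the most comparisons. Capitals mark matches, on either strand, to TATAAA (bound by TBP), GGGCGG (SP1), GCCNNNGGC (AP-2, the family of Tfap2c), TGANTCA (AP-1), CATTCC (TEAD) or AGATAA (the family of Gata2 and Gata3).
Krt8 (chr15:102004293-102004592, minus strand): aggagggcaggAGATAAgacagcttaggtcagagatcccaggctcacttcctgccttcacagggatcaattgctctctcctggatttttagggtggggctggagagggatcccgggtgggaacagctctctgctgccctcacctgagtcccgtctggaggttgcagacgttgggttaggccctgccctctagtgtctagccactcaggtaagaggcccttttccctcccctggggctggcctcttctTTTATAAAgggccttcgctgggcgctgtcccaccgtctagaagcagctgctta
Krt18 (chr15:102027966-102028265, plus strand): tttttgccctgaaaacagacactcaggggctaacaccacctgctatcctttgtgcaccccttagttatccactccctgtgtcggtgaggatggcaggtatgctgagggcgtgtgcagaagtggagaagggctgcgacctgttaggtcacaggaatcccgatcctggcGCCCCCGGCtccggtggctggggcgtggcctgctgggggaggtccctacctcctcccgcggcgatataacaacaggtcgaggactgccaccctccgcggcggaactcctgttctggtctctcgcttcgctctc
Gata3 (chr2:9878551-9878850, minus strand): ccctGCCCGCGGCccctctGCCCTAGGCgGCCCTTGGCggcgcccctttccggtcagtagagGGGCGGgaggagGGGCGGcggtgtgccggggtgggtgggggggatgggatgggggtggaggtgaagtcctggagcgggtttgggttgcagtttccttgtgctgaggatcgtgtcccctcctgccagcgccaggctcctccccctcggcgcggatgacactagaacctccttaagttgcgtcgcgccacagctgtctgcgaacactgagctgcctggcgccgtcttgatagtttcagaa
The Krt8 window held AGATAA at -239 from the start, and TATAAA in overlapping matches at -3 and -1, across the start. The Krt18 window held 1 GCCNNNGGC, and the Gata3 window held 3 of them and 2 GGGCGG. Of the 8 windows of the 7 members (Gata2 has 2 starts), 5 held GCCNNNGGC, which 16.6% of all 32851 windows hold, 4 held GGGCGG (35.7% of all), and 1 each held TATAAA (13.6%), CATTCC (14.7%) and AGATAA (11.2%). None held TGANTCA (7.81% of all). The GC content was 66.3% for Krt7, 58.0% for Krt8, 61.3% for Krt18 and 57.3% for Cdx2. It was 69.3 and 73.7% for Gata2, 67.3% for Gata3 and 47.3% for Eomes, against a median of 52.7% over all windows. GCCNNNGGC and GGGCGG have only G and C at their fixed bases, and the part of GC content in these counts was not tested. In the Krt7 window 1 GGGCGG overlapped a GCCNNNGGC, and no other matches of different motifs overlapped in these windows. The matches are letters in a window and not measured binding.

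The 5′ splice sites are the element that NRDE2 and CCDC174 contact, so for each member a site with its fewest matches is shown (1 of 3 such sites in Krt7 and 1 of 2 in Gata2), as 3 exon bases followed by 6 intron bases. The most frequent bases over all 249807 annotated sites were caggtaagt, and capitals mark the bases that differ from them.
Krt8: TaAgtGagC
Krt18: caggtaCAA
Krt19: cTggtaCTG
Krt7: TGggtGagA
Cdx2: caggtGGgA
Gata2: GaggtTGgA
Gata3: AGCgtaTgt
Tfap2c: GGAgtGagA
Eomes: AGggtGagG
Of the 65 sites in the 9 members, 14 matched the most frequent bases at 5 or fewer of the 9 positions. That is 21.5% of the members' sites against 20.2% of all sites. Tfap2c held 5 of the 14, among its 10 sites, and its least matching site had 4 matches. None of the 6 sites of Krt18 and neither site of Cdx2 was among the 14. Reads over single introns were not analysed here.

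In untreated WT cells the keratin pair Krt8 and Krt18 carried the most RNA of the group. Per kb of exon, the median over the 8 untreated WT libraries was 24.2 normalized CPM for Krt8 (15.6 to 28.1) and 14.4 for Krt18 (8.79 to 19.1), and these ranges overlapped. Tfap2c, an AP-2 factor, followed with 6.52 (2.16 to 8.07), below every Krt18 value. Eomes, a T-box factor, stood at 2.95 (2.12 to 4.18), Gata2 at 0.944 (0.260 to 2.43), Krt19 at 0.753 (0.398 to 1.27), Cdx2 at 0.441 (0.110 to 0.569) and Gata3 at 0.410 (0.273 to 0.519). From Tfap2c down to Gata3 each neighbor in the order overlapped the next. Krt7 was lowest at 0.0520 (0.00781 to 0.0958), with no overlap with Gata3. Lengths are merged exons of all annotated transcripts, 7049 bases for Krt7, 1958 for Krt8, 1437 for Krt18, 1855 for Krt19 and 3978 for Gata3. A gene whose expressed transcripts are shorter than its merged exons is understated, and which transcripts were expressed was not tested. Krt8 and Krt18 have processed pseudogenes elsewhere in the genome and only uniquely mapping reads were counted, so reads shared with the copies are missing and the levels of these 2 genes are uncertain.

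Levels also differed between the WT groups. Gata2 had 1.4 and 1.77 normalized CPM in Ccdc174 WT, 5.15 and 7.70 in Nrde2 WT of the first experiment, 5.05 and 3.92 in Nrde2 WT of the second, and 9.49 and 13.1 in Mtrex WT. Tfap2c had 7.96 and 10.3 in Ccdc174 WT against 22.9 and 27.8 in Nrde2 WT of the first experiment. Within the Nrde2 line Eomes averaged 9.01 in the first experiment and 16.3 in the second, so line and experiment cannot be told apart in these levels. Nrde2-KO, Mtrex-KO and Ccdc174-dTAG were compared with WT libraries of the same line, but the Nrde2-d200 and Nrde2-D174R clones with the conditional Nrde2 line, so clone and mutation cannot be told apart there.

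**Figure D1:**
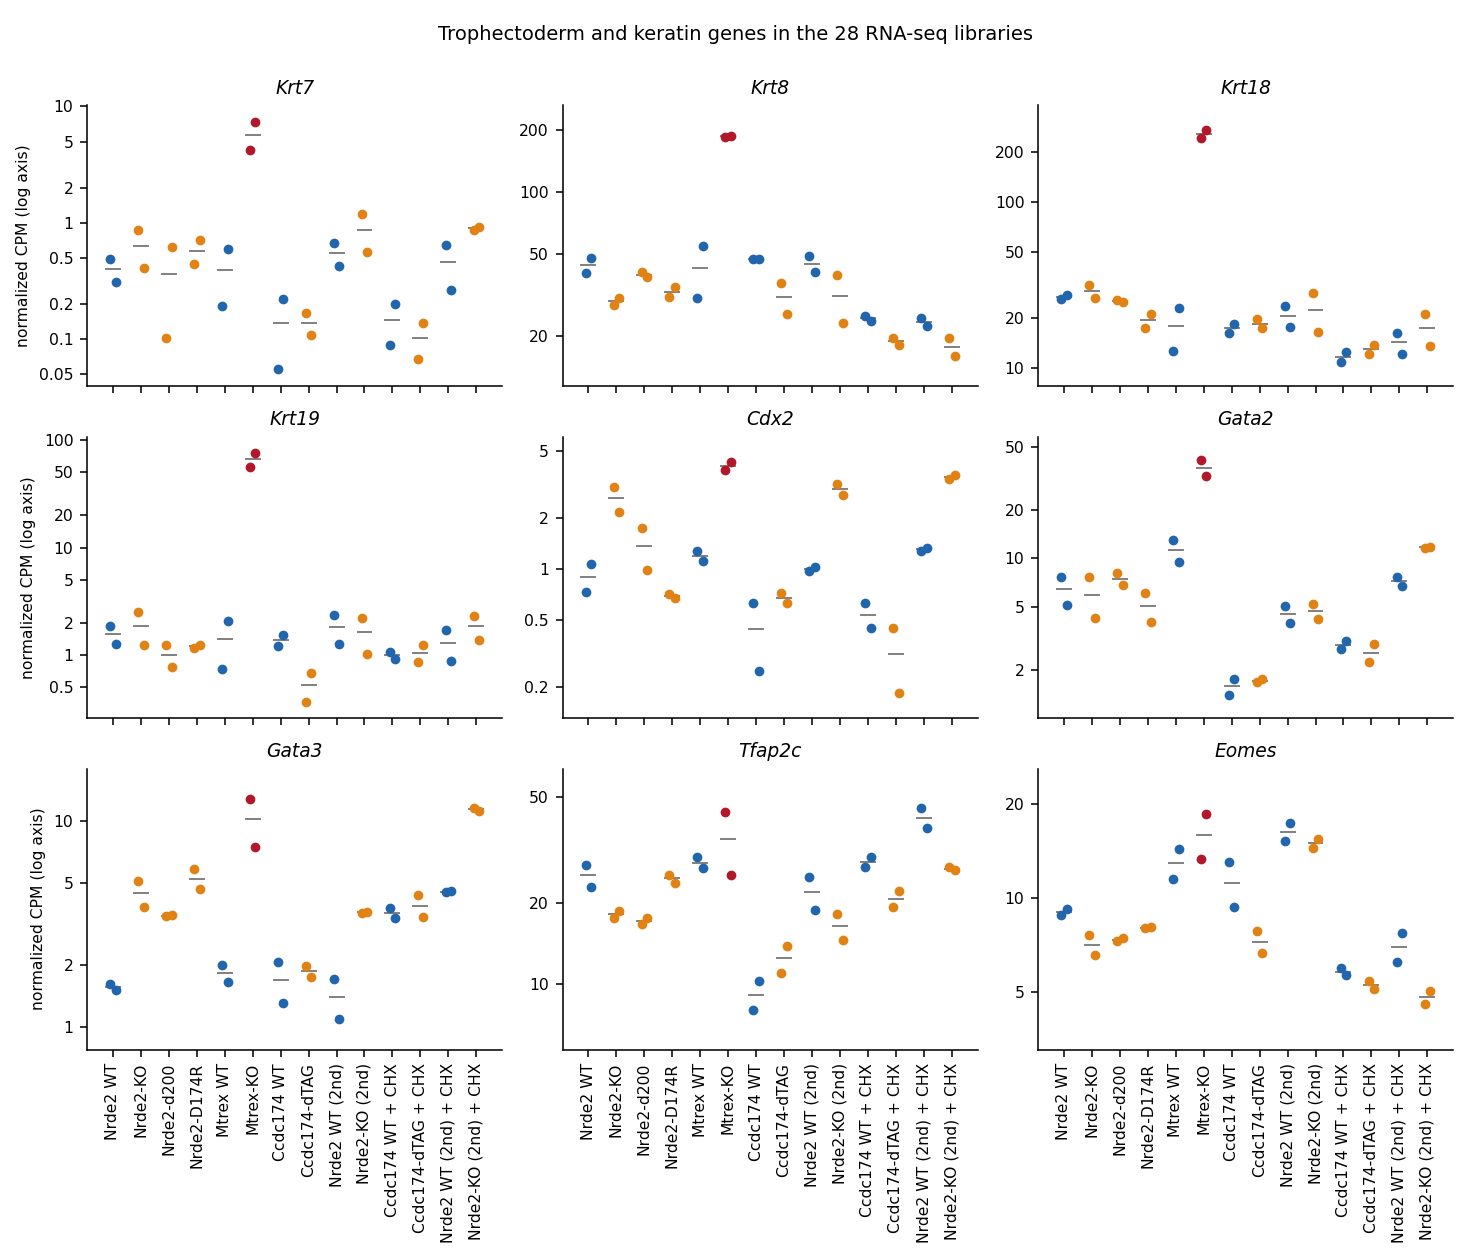
Normalized CPM of the 9 genes on log axes, one point per RNA-seq library and a grey line at each group's mean of 2 libraries, with WT groups in blue, Mtrex-KO in red and the other altered groups in orange. The 4 keratins stand far above all other groups in Mtrex-KO. Gata3 is higher in every group labelled Nrde2-KO and in both Nrde2 mutant groups than in its WT. Eomes is lower in each CHX group than in its untreated counterpart, but some untreated groups, such as Nrde2-d200, overlap Nrde2 WT with CHX.

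Loss of MTREX went with the broadest difference in these genes. All 4 keratins and Cdx2, Gata2 and Gata3 rose in Mtrex-KO, while the differences of Tfap2c and Eomes did not pass the test. The rise ran from 1.58 on the log2 scale for Cdx2 to 5.43 for Krt19. Of all 14889 genes tested, 15.8% were differentially expressed upward and 10.9% downward, against 7 and 0 of the 9 members. Krt7, counted among the 7, reached the filter of 0.5 CPM only through the Mtrex-KO libraries. The median log2 fold change was 2.18 over the members and -0.0017 over all genes.

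Krt8 had 30.6 and 55.1 normalized CPM in the Mtrex WT libraries and 186 and 188 in Mtrex-KO. Krt18, its type I partner, had 12.6 and 22.9 in WT and 241 and 271 in Mtrex-KO. Both KO libraries of either gene lay far above both WT libraries. The log2 fold change was 2.18 for Krt8 (SE 0.23, adjusted p = 2.71e-07) and 3.89 for Krt18 (SE 0.24, adjusted p = 3.07e-10).

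Krt19, which can take the place of Krt18 in filaments and lacks most of the keratin tail, had 0.739 and 2.08 normalized CPM in Mtrex WT and 55.8 and 76.3 in Mtrex-KO. Its log2 fold change of 5.43 (SE 0.41, adjusted p = 4.08e-09) ranked 12th from the top among the 14889 genes. Krt7, the type II keratin of ducts and trophoblast, had 0.191 and 0.598 in WT and 4.19 and 7.29 in Mtrex-KO, and rose by 3.24 on the log2 scale (SE 0.44, adjusted p = 4.74e-06). Over the other libraries of this fit Krt7 averaged below the filter of 0.5 CPM, so it was tested only through the group where it is high. The Mtrex-KO level of Krt7 per kb of merged exons, 0.814, stayed far below that of Krt18, 178, and of Krt8, 95.5. The groups of both genes were well separated.

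The order within the pair turned over. Per kb, Krt18 over Krt8 was 0.563 and 0.566 in the Mtrex WT libraries and 1.77 and 1.96 in Mtrex-KO, and it lay between 0.467 and 1.51 over the 26 RNA-seq libraries other than Mtrex-KO. This ratio was not tested, and the uniquely mapping reads behind it are subject to the pseudogene limit given above.

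Among the transcription factors, Gata3, a zinc finger factor of the trophectoderm, had 2.00 and 1.65 normalized CPM in Mtrex WT and 12.8 and 7.5 in Mtrex-KO. Gata2, its close relative, had 13.1 and 9.49 in WT and 41.2 and 32.8 in Mtrex-KO. Cdx2, the caudal-type homeobox factor, had 1.29 and 1.11 in WT and 3.87 and 4.30 in Mtrex-KO. No KO library of these genes overlapped a WT library, and the log2 fold changes were 2.28 for Gata3 (SE 0.25, adjusted p = 4.60e-07), 1.70 for Gata2 (SE 0.27, adjusted p = 2.58e-05) and 1.58 for Cdx2 (SE 0.27, adjusted p = 6.65e-05).

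Tfap2c had 29.7 and 27.0 normalized CPM in Mtrex WT and 43.9 and 25.6 in Mtrex-KO, so the 2 KO libraries lay on either side of WT (log2 fold change 0.24, 95% interval -0.19 to 0.68, adjusted p = 0.309). Without replicate 2 of Mtrex-KO the Tfap2c value was 0.63 and passed the test. Eomes had 11.5 and 14.4 in WT and 13.4 and 18.5 in Mtrex-KO, which overlapped (0.28, 95% interval -0.08 to 0.64, adjusted p = 0.152). With CPM as deposited, without the scaling factors, both values were below 0 (-0.15 and -0.11), the median of all genes moved to -0.38, and the upward share of the differentially expressed genes was 34.1% in place of 59.3%. The 7 members were differentially expressed under that scaling and without any 1 library of the comparison, with Cdx2 lowest at 1.21 under it.

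Other genes of the same programs were counted from lists set with earlier results of these data known. Of 40 other trophectoderm and trophoblast genes 31 were tested in Mtrex-KO, 17 were differentially expressed upward and 4 downward, and their median log2 fold change was 1.43. Among those that rose were Wnt7b, a Wnt ligand, at 15.5 normalized CPM against 0.702 (log2 4.07), and Id2, an inhibitor of bHLH factors, at 62.9 against 3.87 (3.95). The list summed to 4406 and 4653 normalized CPM in WT and to less, 3690 and 4099, in Mtrex-KO. Most of that was the glucose transporter Slc2a3, at 3420 and 3670 in WT and 2306 and 2692 in Mtrex-KO, and without it the list summed to 986 and 983 in WT and 1384 and 1408 in Mtrex-KO. Tpbpa, Prl3d1 and Prl2c2, markers of placental trophoblast layers, had no read in any of the 4 libraries.

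Of 36 epithelial junction genes 33 were tested, and 16 were differentially expressed upward and 3 downward (median 0.99), led by the desmosomal cadherin Dsc2 (3.21), the epithelial splicing regulator Esrp1 (2.63) and the keratin linker Plec (2.60). With CPM as deposited 11 were upward and 3 downward. Of 50 other keratin genes only 3 had enough reads to be tested. Krt10, an epidermal type I keratin, rose (log2 2.02, 4.26 against 0.862 normalized CPM) and Krt42 fell (-1.70, 12.0 against 39.0). Of 22 pluripotency markers none was differentially expressed upward and 4 were downward (median -0.22), led by Tcl1 (-3.12), Prdm14 (-1.38) and Fgf4 (-1.36).

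Markers of other cell types moved in part with these genes. Of 20 primitive endoderm markers 13 were tested, 6 were differentially expressed upward and 1 downward, led by Gata6 (3.02), Col4a2 (2.42) and Col4a1 (2.23). The list summed to 1694 and 1568 normalized CPM in WT and 2282 and 2487 in Mtrex-KO, with Lamc1 most abundant, Afp without a read in both WT libraries and Ttr without one in both KO libraries. Of 18 fibroblast and feeder markers 8 were tested, 3 upward and 2 downward, with Tagln at 4.37, Pdgfrb at -2.67 and Thy1 at -1.46. Their sum was 1097 and 867 in WT and 1762 and 1039 in Mtrex-KO, most of it Fn1, and without Fn1 126 and 130 in WT and 258 and 167 in Mtrex-KO, with Dcn, Lum, Postn, Prrx1 and Lox at 0 in both WT libraries and Lum at 0 in both KO libraries. Of 17 mesoderm and neural markers 9 were tested, 1 upward and 3 downward (Gsc, Tubb3 and T), and the list summed to 141 and 144 in WT and 175 and 164 in Mtrex-KO, with none at 0 in both libraries of either group. Tubb3 was most abundant in WT and Nes in Mtrex-KO, and without Nes the list summed to 86.3 and 99.1 in WT and 40.1 and 48.4 in Mtrex-KO. The part of these other programs in the keratin and transcription factor values was not tested, and in bulk RNA more cells of a type and more RNA per cell cannot be told apart.

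In Nrde2-KO cells the picture was narrower. Cdx2 and Gata3 rose in both RNA-seq experiments, by 1.25 to 1.37 on the log2 scale, and no keratin of the group passed the test. In the first experiment 2 of the 9 members were differentially expressed upward, against 3.02% of all 14889 genes (1.99% downward), and in the second 2 of 9, against 2.41% (2.42% downward).

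Gata3 had 1.61 and 1.51 normalized CPM in Nrde2 WT and 5.11 and 3.79 in Nrde2-KO of the first experiment, and 1.70 and 1.08 against 3.56 and 3.62 in the second. Every KO library lay above every WT library. The log2 fold change was 1.37 (SE 0.25, adjusted p = 0.000654) and then 1.25 (SE 0.25, adjusted p = 0.00127).

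Cdx2 had 0.728 and 1.07 normalized CPM in WT and 3.05 and 2.19 in Nrde2-KO of the first experiment, and 0.969 and 1.02 against 3.19 and 2.73 in the second. The groups did not overlap in either, and the log2 fold change was 1.32 (SE 0.27, adjusted p = 0.00149) and then 1.36 (SE 0.27, adjusted p = 0.00117). Each call rested on few libraries. In the first experiment Cdx2 missed the threshold without replicate 1 of WT or of Nrde2-KO (up to adjusted p = 0.0315) and Gata3 without replicate 1 of Nrde2-KO (0.0163), and in the second each gene missed it without 1 WT or 1 KO library.

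Krt8 had 40.4 and 47.7 normalized CPM in Nrde2 WT and 28.3 and 30.7 in Nrde2-KO in the first experiment. In the second it had 48.9 and 41.1 in WT and 39.7 and 23.2 in Nrde2-KO. Both KO libraries lay below both WT libraries each time, as 36% of all genes did in the first experiment and 33.2% in the second, and the values of -0.57 (SE 0.23, adjusted p = 0.0723) and -0.56 (adjusted p = 0.0782) did not pass the test. Krt18 overlapped between WT and KO, with 26.0 and 27.4 against 31.5 and 26.4 in the first experiment and a log2 fold change of 0.11 (95% interval -0.39 to 0.61). Per kb, Krt18 over Krt8 was 0.874 and 0.783 in WT and 1.51 and 1.17 in Nrde2-KO, and 0.658 and 0.582 against 0.972 and 0.969 in the second experiment.

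The remaining members gave no call in either experiment. In the first, Tfap2c had 27.8 and 22.9 in WT and 17.6 and 18.8 in Nrde2-KO (-0.47, adjusted p = 0.0946), Eomes 8.82 and 9.20 against 7.63 and 6.58 (-0.34, adjusted p = 0.149), and Gata2 7.70 and 5.15 against 7.66 and 4.23 (-0.14, adjusted p = 0.733). Tfap2c and Eomes were lower in both KO libraries than in both WT libraries, and Gata2 overlapped. In the second experiment Tfap2c was again lower in both KO libraries, at 18.2 and 14.6 against 25.1 and 18.8, but Eomes overlapped, at 14.5 and 15.4 against 15.2 and 17.4. In the first experiment Krt19 and Krt7 overlapped as well, at 1.85 and 1.27 against 2.52 and 1.22 for Krt19 and 0.485 and 0.312 against 0.865 and 0.408 for Krt7. None of the members differed between the 2 experiments in the size of the Nrde2-KO effect, a test that 0% of genes passed in either direction by limma, with 924 of the 14889 at an unadjusted p below 0.05 and 3 differentially expressed by DESeq2.

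Over all genes, 7.64% passed the test upward and 10.6% downward in the first Nrde2-KO experiment, and 7.44% and 11.3% in the second. Of 33 junction genes tested in Nrde2-KO, 11 passed the test downward and none upward (median -0.31), and 22 did not pass. Of these 11, 6 were differentially expressed, led by Cldn7 (-1.42), Tjp3 (-1.30) and Crb3 (-1.28), and in the second experiment 15 passed downward and none upward (median -0.40), 5 of them differentially expressed. Of the other keratins 3 were tested, and Krt17 fell from 8.43 to 2.53 normalized CPM (-1.65) and Krt42 from 19.4 to 8.50 (-1.17). Of the 31 other trophectoderm and trophoblast genes, 1 was differentially expressed, Bmp4, which fell (-1.30), and of the 22 pluripotency markers 1, Tcl1 (-1.52). Of these 22 markers 9 passed the test downward and none upward (median -0.40), and they summed to 7582 and 7949 in WT and 5779 and 6183 in Nrde2-KO. In the second experiment 5 passed downward and none upward (median -0.12), with Tcl1 (-1.39) and Utf1 (-1.10) differentially expressed. The primitive endoderm factor Gata6 (1.78) and Dab2 (1.05) rose among 13 primitive endoderm markers, of which 3 passed the test upward and 1 downward. That list summed to 1689 and 1524 in WT and to less, 1482 and 1378, in Nrde2-KO of the first experiment. Vim fell (-1.20) among the 8 fibroblast markers, and none of the 9 mesoderm and neural markers was called. The part of these markers in the Gata3 and Cdx2 values was not tested.

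The test of the difference between the Mtrex-KO and Nrde2-KO effects, each taken against its own WT, passed for Krt7, Krt8, Krt18, Krt19 and Gata2, 5 of the 9 members and all of them upward, where 17.4% of genes passed upward and 14.1% downward. The differences on the log2 scale were 5.25 for Krt19 (SE 0.58, adjusted p = 1.84e-06), 3.78 for Krt18 (SE 0.33, adjusted p = 1.94e-07), 2.83 for Krt7 (SE 0.62, adjusted p = 0.00134), 2.75 for Krt8 (SE 0.33, adjusted p = 4.34e-06) and 1.84 for Gata2 (SE 0.38, adjusted p = 0.000795). For Cdx2 the difference was 0.26 (95% interval -0.55 to 1.08, adjusted p = 0.612) and for Gata3 0.92 (95% interval 0.16 to 1.67, adjusted p = 0.0467). Tfap2c (0.71, adjusted p = 0.0564) and Eomes (0.62, adjusted p = 0.0459) did not pass either. Krt7 entered this test only because its Mtrex-KO libraries lifted it over the filter on low values. The Krt7 value missed the threshold without replicate 2 of Nrde2-KO (adjusted p = 0.0105), while Gata3 (1.29) and Tfap2c (1.10) passed it without replicate 2 of Mtrex-KO and Eomes (0.85, adjusted p = 0.00854) without replicate 1. With CPM as deposited the median of this difference over all genes was -0.42 in place of 0.02, and the upward share of its differentially expressed genes 28.9% in place of 61.3%.

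**Figure D2:**
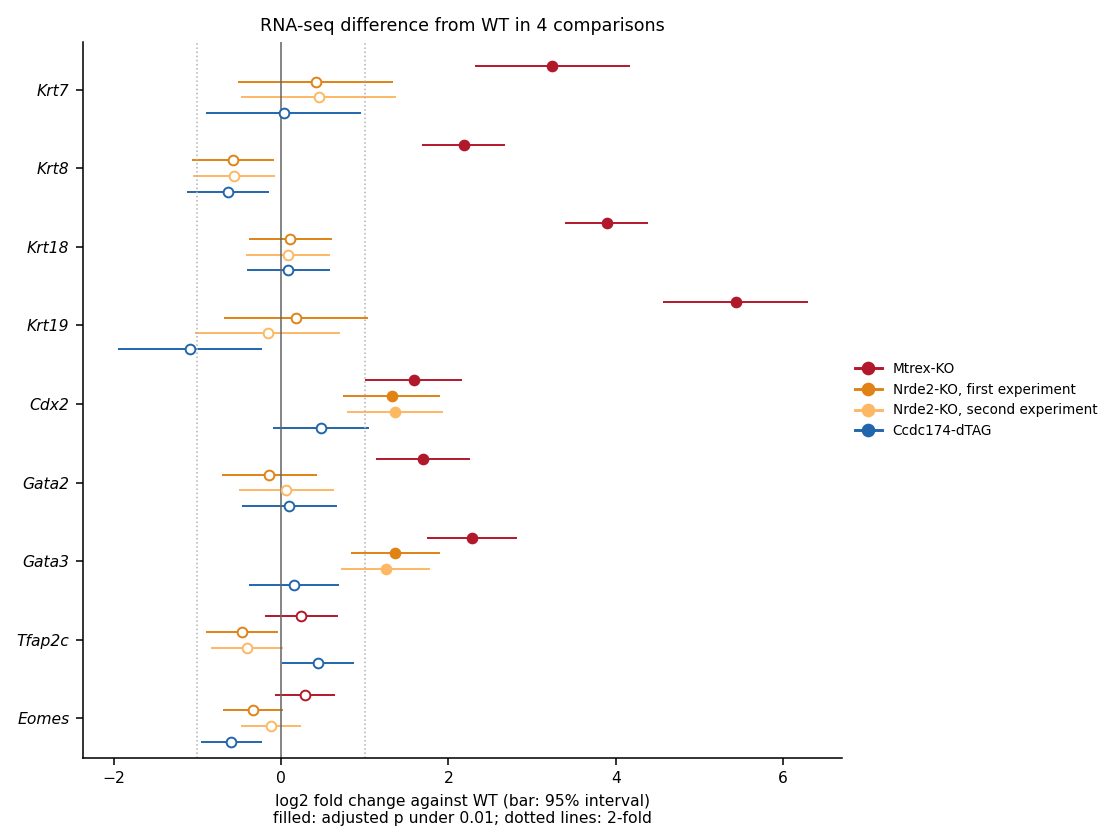
Log2 fold change against the matching WT for each gene (points) with its 95% interval (bars), in Mtrex-KO, Nrde2-KO of both experiments and Ccdc174-dTAG, with filled points where the adjusted p was below 0.01 and dotted lines at 2-fold. The keratins and Gata2 stand apart in Mtrex-KO, from 1.70 to 5.43, Cdx2 and Gata3 are above 0 in Mtrex-KO and both Nrde2-KO experiments, and no Ccdc174-dTAG point is filled.

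In the Nrde2 mutant lines Gata3 was the 1 member differentially expressed. It had 3.43 and 3.49 normalized CPM in Nrde2-d200 and 5.80 and 4.66 in Nrde2-D174R, against 1.61 and 1.51 in the WT libraries that all 3 Nrde2 comparisons share. All 4 mutant libraries lay above WT. The log2 fold change was 1.04 (SE 0.25, adjusted p = 0.00989) in Nrde2-d200, where 1.59% of genes were differentially expressed upward and 1.07% downward, and 1.59 (SE 0.25, adjusted p = 0.00415) in Nrde2-D174R, where 0.154% and 0.0604% were. In Nrde2-D174R it ranked 9th from the top. Both calls were lost without any 1 of their 4 libraries, with adjusted p of 0.0462 to 0.0799 in Nrde2-d200 and 0.0273 to 0.0893 in Nrde2-D174R, and the Nrde2-d200 value missed the threshold by edgeR (0.0107).

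Cdx2 had 1.74 and 0.994 in Nrde2-d200 and 0.715 and 0.677 in Nrde2-D174R, with 0.47 (95% interval -0.10 to 1.05) and -0.26 (95% interval -0.84 to 0.31) on the log2 scale. Krt8 was 40.8 and 38.8 in Nrde2-d200 and 30.9 and 34.8 in Nrde2-D174R, and the latter pair lay below WT without passing the test (-0.42, adjusted p = 0.365). Krt18 in Nrde2-D174R, at 17.5 and 21.1, was also below both WT libraries (-0.47, adjusted p = 0.316). In Nrde2-D174R 5 of the 9 members lay below both WT libraries, where 29.4% of all genes did. Tfap2c was 16.7 and 17.6 in Nrde2-d200 (-0.55, adjusted p = 0.0764) and 25.6 and 23.9 in Nrde2-D174R (-0.03, adjusted p = 0.961). The values of the other members lay from -0.54 (Krt19 in Nrde2-d200) to 0.34 (Krt7 in Nrde2-D174R).

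Markers of other cell types moved in Nrde2-d200 as well. Of 13 primitive endoderm markers 5 passed the test upward and none downward (median 0.67), where 3.22% of all genes passed upward and 4.27% downward, with Dab2 (1.24) and Srgn (1.10) differentially expressed. Esrp1 (-1.70), Cldn7 (-1.08) and Lad1 (-1.07) fell among 33 junction genes, Bmp4 (-1.51) among 31 trophectoderm genes and Utf1 (-1.41) among 22 pluripotency markers. In Nrde2-D174R 1 gene of these lists was differentially expressed, Crb3, which fell (-1.26). The part of these genes in the Gata3 values was not tested.

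Depletion of CCDC174 gave no call among the 9 members, where 0.228% of genes were differentially expressed upward and 1.16% downward. Krt8 had 47.2 and 47.6 normalized CPM without dTAG-13 and 36.1 and 25.7 with it. Krt19 had 1.21 and 1.52 without dTAG-13 and 0.362 and 0.683 with it, and Eomes had 13.0 and 9.40 against 7.83 and 6.70. The 3 genes were lower in both depleted libraries than in both WT libraries, with -0.63 (adjusted p = 0.0884) for Krt8, -1.09 (adjusted p = 0.0961) for Krt19 and -0.59 (adjusted p = 0.0308) for Eomes, none past the threshold. Of all genes tested, 25.6% lay below WT in this way.

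Tfap2c was higher in both Ccdc174-dTAG libraries (11 and 13.9 against 7.96 and 10.3), with 0.44 and an adjusted p of 0.190. Gata3 overlapped WT, at 1.98 and 1.75 against 2.06 and 1.30, with a log2 fold change of 0.16 (95% interval -0.38 to 0.69). Its difference from the Nrde2-KO effect, -1.21 (95% interval -1.97 to -0.45, adjusted p = 0.0525), did not pass the test, and no member passed it, where 0.813% of genes passed upward and 0.84% downward. Krt18, Gata2, Cdx2 and Krt7 lay between 0.03 and 0.48 on the log2 scale and did not pass the test. Of the lists, the junction gene Esrp1 (-1.38) and Bmp4 (-1.33) were differentially expressed, both downward.

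CHX blocks translation and so also halts decay that depends on it. After CHX 5 of the 8 members tested passed the test in Nrde2 WT cells and the same 5 in Ccdc174 WT cells. Gata3, Gata2 and Tfap2c rose, and Krt8 and Eomes fell. Krt7 had too few reads to be tested, at 0.0551 to 0.675 normalized CPM over the 8 WT libraries of these experiments. Of all 15133 genes, 25.1% passed upward and 22.4% downward in Nrde2 WT cells, and 25.4% and 24.1% in Ccdc174 WT cells, so that passing was common.

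Gata3 had 1.70 and 1.08 normalized CPM without CHX and 4.53 and 4.54 with it in Nrde2 WT cells, and 2.06 and 1.30 against 3.79 and 3.38 in Ccdc174 WT cells. The CHX libraries lay above the others in both lines. The log2 fold change was 1.57 (SE 0.21, adjusted p = 1.52e-05) and 1.02 (SE 0.21, adjusted p = 0.000654). In Ccdc174 WT cells the call was lost without replicate 2 of the untreated cells (0.73) or replicate 1 of the CHX cells (0.94). Differentially expressed genes made up 11.2% upward and 2.91% downward in Nrde2 WT cells, and 12.7% and 2.62% in Ccdc174 WT cells.

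Eomes, which was lower in the CHX libraries than in the untreated libraries of the same WT group and experiment, had 15.2 and 17.4 without CHX and 6.26 and 7.72 with it in Nrde2 WT cells (-1.20, SE 0.15, adjusted p = 1.13e-05). In Ccdc174 WT cells it had 13.0 and 9.40 against 5.96 and 5.69 (-0.90, SE 0.15, adjusted p = 0.000145). Krt8 stood at 48.9 and 41.1 without CHX and 24.5 and 22.4 with it (-0.93, SE 0.20, adjusted p = 0.000914), and at 47.2 and 47.6 against 25 and 23.8 in Ccdc174 WT cells (-0.95, adjusted p = 0.000685). Eomes in Nrde2 WT cells was the 1 call among these values, the others being smaller than 2-fold.

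Tfap2c had 25.1 and 18.8 without CHX and 45.4 and 38.0 with it in Nrde2 WT cells (0.93, SE 0.16, adjusted p = 0.000199). It had 7.96 and 10.3 against 27.2 and 29.8 in Ccdc174 WT cells (1.63, SE 0.16, adjusted p = 8.42e-07). Gata2 rose by less, 0.66 (adjusted p = 0.00512) in Nrde2 WT and 0.77 (adjusted p = 0.00154) in Ccdc174 WT cells. On leaving out 1 library the adjusted p of Gata2 rose to 0.0660 and 0.0227, and that of Krt8 in Nrde2 WT cells to 0.0135, so these passes were lost. Krt18 (-0.53 and -0.56), Krt19 (-0.42 and -0.37) and Cdx2 (0.32 and 0.24) did not pass the test in either line. With CPM as deposited the median of all genes rose to 0.20 and 0.21, and Eomes in Nrde2 WT cells came to -0.99, just short of the 2-fold threshold, while Tfap2c there came to 1.13.

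**Figure D3:**
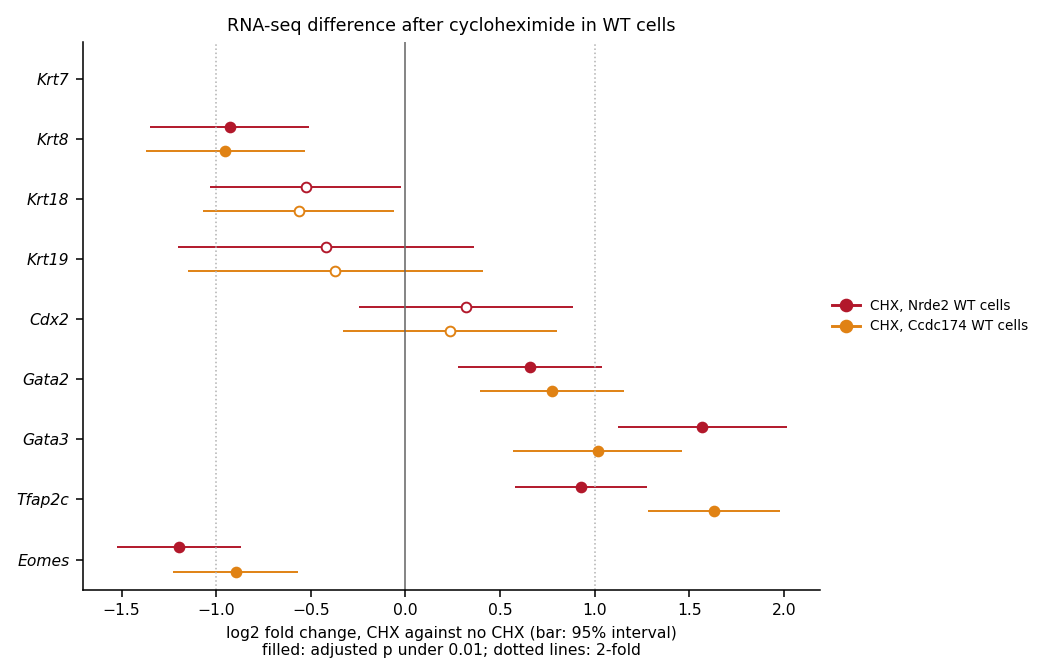
Log2 fold change after CHX for each gene (points) with its 95% interval (bars) in the Nrde2 and Ccdc174 WT lines, with filled points where the adjusted p was below 0.01 and dotted lines at 2-fold. Gata2, Gata3 and Tfap2c lie above 0 and Krt8 and Eomes below 0 in both lines, and Krt7 was not tested.

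Other genes moved further after CHX. Among the other trophectoderm genes 7 rose and 1 fell by the full criteria in Nrde2 WT cells and 6 and 1 in Ccdc174 WT cells, led by Id2 (4.55 and 3.78), Dppa1 (2.94 and 4.00) and Grhl2 (2.38 and 2.53). Among the pluripotency markers 3 fell in each line, Fgf4 (-1.53 and -1.81), Tfcp2l1 (-1.33 and -1.41) and Nanog (-1.15 and -1.25). All 5 other keratins tested passed in each line, 3 upward and 2 downward. Krt222 (2.04 and 2.47) rose by more than 2-fold in both lines, and in Nrde2 WT cells Krt10 (1.15) rose and Krt17 (-1.01) fell by that much. The neural gene Pax6 (3.74 and 4.55) and Otx2 (1.92 and 2.05) rose and Tubb3 (-1.80 and -1.77) fell among the 9 mesoderm and neural markers tested, of which 3 were differentially expressed upward and 1 downward in Nrde2 WT cells and 2 and 1 in Ccdc174 WT cells. Of 9 fibroblast markers 1 was differentially expressed upward and 1 downward in Nrde2 WT cells and 2 and 1 in Ccdc174 WT cells, with Col3a1 at 2.04 and 2.49, Vim at -1.32 and -1.30, and Pdgfrb at 1.23 in Ccdc174 WT cells. Of 13 primitive endoderm markers Sox17 rose in both lines (1.28 and 1.05) and Pdgfra (1.4) in Ccdc174 WT cells, where the junction gene Evpl (1.09) also rose. The part of these genes in the members' values was not tested.

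With CHX present, the libraries labelled Nrde2-KO again had more Gata3 and Cdx2 RNA than WT libraries. Gata3 had 4.53 and 4.54 normalized CPM in WT and 11.6 and 11.1 in the libraries labelled Nrde2-KO. Cdx2 had 1.28 and 1.34 against 3.41 and 3.59. The groups were far apart for both, with log2 fold changes of 1.28 (SE 0.14, adjusted p = 6.08e-05) and 1.27 (SE 0.24, adjusted p = 0.00172), and these were the 2 members differentially expressed, where 2.83% of genes were upward and 1.74% downward. Cdx2 missed the threshold without 3 of the 4 libraries left out in turn.

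Tfap2c (45.4 and 38.0 against 27.3 and 26.5) fell by 0.62 and Krt8 (24.5 and 22.4 against 19.6 and 16) fell by 0.40 in the CHX libraries labelled Nrde2-KO, with adjusted p of 0.000513 and 0.00768. Gata2 rose by 0.70 (7.66 and 6.70 against 11.7 and 11.9, adjusted p = 0.00356). These 3 passed the test without reaching 2-fold, where 12.5% of genes passed upward and 15.4% downward. On leaving out 1 library Krt8 moved to -0.26 (adjusted p = 0.0769, without replicate 2 of the libraries labelled Nrde2-KO) and the adjusted p of Gata2 rose to 0.0283, while Tfap2c passed each time. In Ccdc174-dTAG with CHX, Tfap2c fell by 0.46 (27.2 and 29.8 against 19.3 and 22.2, adjusted p = 0.00825), a pass that was lost without any 1 of the 4 libraries (adjusted p 0.0148 to 0.0702). It was the 1 member that passed, where 3.19% of genes passed upward and 5.87% downward, and none was differentially expressed (0.207% upward and 0.704% downward). In the same comparison Krt17 (-1.09) fell among 5 other keratins and Pax6 (-1.08) among 10 mesoderm and neural markers. Of 15 primitive endoderm markers 1 passed upward and 3 downward, and of 22 pluripotency markers 1 upward and 3 downward. The part of these genes in the Tfap2c value was not tested.

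Other genes also differed between the libraries labelled Nrde2-KO and WT with CHX. Gata6 (1.81) and Pdgfra (1.49) rose and Foxa2 (-1.34) fell among 15 primitive endoderm markers, Esrp1 (-1.38), Cldn7 (-1.22) and Tjp3 (-1.01) fell among 34 junction genes, and Krt17 (-1.61) and Krt42 (-1.25) fell among 5 other keratins. Tcl1 (-1.37) and Tdgf1 (-1.01) fell among the pluripotency markers, Vim (-1.14) among the fibroblast markers and Pax6 (-1.13) among the neural markers, and Msx2 (1.26) rose among the trophectoderm genes. The part of these genes in the Gata3 and Cdx2 values was not tested.

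The change in an effect with CHX was tested directly and no member passed. In the Nrde2 experiment the value was 0.63 for Gata2 (95% interval 0.09 to 1.17, adjusted p = 0.244), and for Gata3 the difference was 0.03 (95% interval -0.60 to 0.66). In the Ccdc174 experiment it was 1.12 for Krt19 (95% interval 0.02 to 2.23, adjusted p = 0.502), -0.99 for Cdx2 (95% interval -1.78 to -0.19, adjusted p = 0.369) and -0.90 for Tfap2c (95% interval -1.39 to -0.40, adjusted p = 0.111). Few genes of any kind passed, 0.416% upward and 0.0991% downward in the first and 0.211% and 0.0396% in the second.

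Ribosome footprints in Nrde2-KO cells, taken after 4OHT for 4 d per the labels or for 3 d and overnight per the methods, gave 2 calls. Krt8 fell and Gata3 rose, where 3.62% of 13857 genes were differentially expressed upward and 2.8% downward. Krt8 had 8.09 and 9.48 normalized CPM in WT (62 and 71 reads) and 3.96 and 3.64 in Nrde2-KO (22 and 28 reads), and Gata3 had 2.61 and 2.54 (20 and 19 reads) against 5.57 and 6.25 (31 and 48 reads). Neither gene overlapped between the groups.

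The log2 fold change was -1.15 for Krt8 (SE 0.22, adjusted p = 0.000332) and 1.12 for Gata3 (SE 0.26, adjusted p = 0.00192). DESeq2 on the recovered reads called neither (adjusted p = 0.0177 and 0.0559), and Gata3 missed the threshold without replicate 2 of Nrde2-KO. Krt18 footprints were slightly above WT in both KO libraries, 5.35 and 4.94 against 5.57 and 5.46, a log2 fold change of 0.10 (95% interval -0.37 to 0.57). Per kb, Krt18 over Krt8 in footprints was 0.901 and 0.710 in WT and 1.92 and 2.04 in Nrde2-KO. This ratio was not tested and is subject to the same pseudogene limit as in RNA.

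Tfap2c led the group in footprints per kb in WT cells, with 8.65 normalized CPM against 4.49 for Krt8 and 3.58 for Krt18, although its RNA per kb was below both. The pseudogene limit on Krt8 and Krt18 and the use of merged exons as lengths apply here too, so this order is uncertain. Tfap2c footprints were 30.7 and 33.0 in WT and 25.7 and 22.6 in Nrde2-KO, and the value of -0.39 just missed the threshold (adjusted p = 0.01004). Cdx2 had 3 reads in each WT library and 5 in each Nrde2-KO library (0.66, 95% interval -0.43 to 1.74, adjusted p = 0.349), a depth at which a change of the size seen in RNA could not be told from none. Krt19 had 1.44 and 2.27 against 1.08 and 1.04 (-0.65, adjusted p = 0.216), and Gata2 (-0.02) and Eomes (0.02) overlapped. Krt7 had 1 and 2 reads in WT and 2 and 7 in Nrde2-KO and was not tested.

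No member passed the test of a footprint effect that differs from the RNA effect. The value was -0.58 for Krt8 (95% interval -1.01 to -0.16, adjusted p = 0.0550), -0.24 for Gata3 (95% interval -0.94 to 0.46, adjusted p = 0.656) and -0.83 for Krt19 (95% interval -1.89 to 0.23, adjusted p = 0.269). Of 12788 genes, 4.39% passed upward and 2.56% downward. With CPM as deposited the median of all genes in the footprint comparison was 0.15 and the upward share of its calls 75.5% in place of 56.4%.

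**Figure D4:**
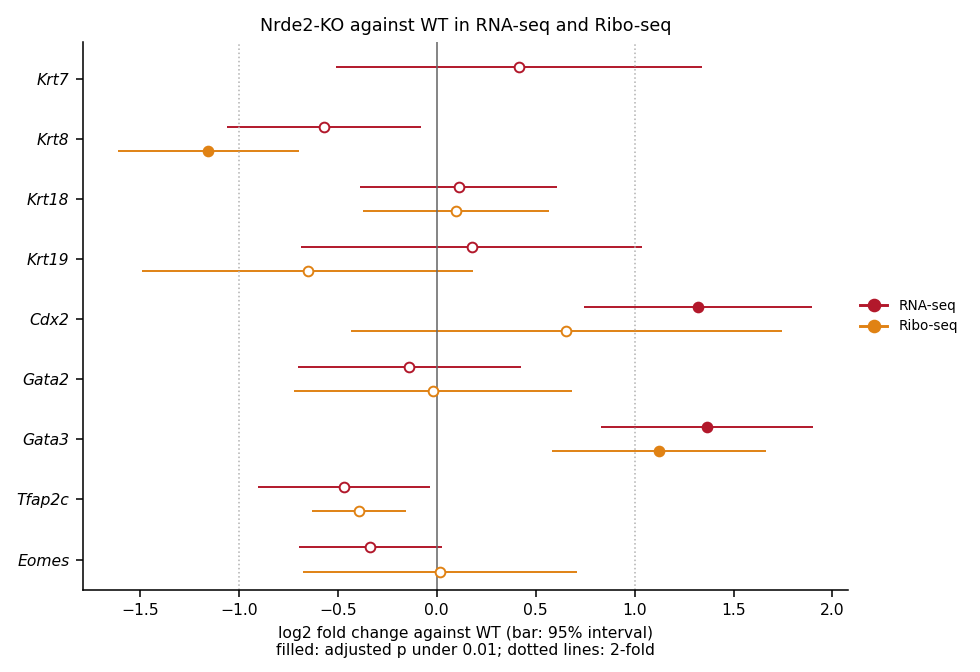
Log2 fold change of Nrde2-KO against WT for each gene (points) with its 95% interval (bars), in RNA-seq of the first experiment and in Ribo-seq, with filled points where the adjusted p was below 0.01 and dotted lines at 2-fold. Gata3 is filled in both assays, Cdx2 in RNA-seq and Krt8 in Ribo-seq, and Krt7 was not tested in Ribo-seq.

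Other gene lists moved in both directions in the footprints. Over all genes 11% passed the test upward and 14.2% downward. Of 34 junction genes 6 passed upward and 4 downward (median -0.12), with Dsc2 (1.39) the 1 differentially expressed, and the list summed to 2179 and 2267 in WT and 2444 and 2546 in Nrde2-KO. Of 30 other trophectoderm genes 3 were differentially expressed upward and 2 downward, led by Fgfr2 (2.09), Tinagl1 (1.81) and Ddah1 (-1.40). Among 22 pluripotency markers none was differentially expressed upward and 2 were downward, Lin28a (-2.34) and Utf1 (-1.91). Of 13 primitive endoderm markers 4 were differentially expressed upward and none downward, led by Srgn (2.14), Gata6 (1.77) and Pdgfra (1.65), and Col1a1 (2.46) and Pdgfrb (1.45) rose and Vim (-1.78) fell among 7 fibroblast markers. Krt17 (-1.83) and Krt42 (-1.45) fell. Of 8 mesoderm and neural markers 1 passed downward and none was differentially expressed. That list summed to 77.5 and 87.6 in WT and to 154 in replicate 1 and 59.2 in replicate 2 of Nrde2-KO. Otx2 made up 100 of the 154. The part of these genes in the Krt8 and Gata3 footprints was not tested.

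Over the 11 comparisons between 2 groups, Gata3 was differentially expressed in 9, always upward, and Cdx2 in 4, always upward. Krt18, Krt19, Krt7 and Gata2 were differentially expressed in 1 of them, Mtrex-KO, Krt8 there and, downward, in the footprints, Tfap2c once and Eomes once, both after CHX. Krt7 was not tested in 5 of the 11 comparisons. Several of these comparisons share WT libraries, so they are not separate pieces of evidence. Pearson's r of log2 levels across the 14 RNA-seq group means is given as a description, over groups that share lines. It was 0.94 for Krt18 and Krt19, 0.91 for Krt7 and Krt19 and 0.89 for Krt8 and Krt18, 0.02 for Gata3 and Krt8, and -0.33 for Gata3 and Eomes. Krt7 was closer to Gata2 (0.85) and Cdx2 (0.82) than to Krt8 (0.68), Krt8 and Eomes stood at 0.72, and Krt19 and Gata2 at 0.75.

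The genes whose 14 group means were most like those of a member were named by the same measure over 15227 genes. They were Tfpi (0.97), 2310015A10Rik (0.97) and 2200002D01Rik (0.96) for Krt8, CT009715.1 (0.99), 2900093K20Rik (0.98) and Serf2 (0.98) for Krt18, and Ttll10, Gm49256 and Pcdhgc5 (0.98 each) for Krt19. For Krt7 they were 6330403L08Rik (0.96), Prrg4 (0.95) and Bcl9l (0.95). For Cdx2 they were Abcb5 (0.94), Cntnap3 (0.93) and Dcc (0.93), and for Gata2 Tspyl1 (0.98), Kmt2e (0.94) and Efnb1 (0.94). Gata3 was most like Bhlhe22 (0.95), Btg3 (0.94) and Upf2 (0.92), Tfap2c like Trmt1l (0.92), Tenm1 (0.92) and Arhgef3 (0.89), and Eomes like Hmces (0.93), Gpr83 (0.91) and Pa2g4 (0.91). For the keratins these values rest mainly on the 1 Mtrex-KO group.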

How the data were processed

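The RNA-seq and Ribo-seq tables were deposited as CPM per gene, which the authors made from uniquely mapping, correctly stranded reads counted with featureCounts after STAR 2.7.3a alignment to mm10 with GENCODE M23. RNA-seq was rRNA-depleted, stranded total RNA read as 50-nt single ends. Dividing each library's CPM by its smallest value above 0, the worth of 1 read, gave back the reads, and 100% of values came out whole within 0.1 read. The CPM refer to a total larger than the reads in genes. Symbols, positions and exon lengths came from GENCODE M21, which held 55154 of the 55335 gene ids.

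CPM were divided by median-of-ratios factors computed over genes above 0 in every library (17848 in RNA-seq, 15342 in Ribo-seq). Genes averaging 0.5 CPM or more over the libraries of a fit (in each assay for the joint fit) were kept, and log2(CPM + 0.25) was tested with limma 3.58.1 (R 4.3.3, trend, Benjamini-Hochberg). Separate fits held the 20 RNA-seq libraries without CHX, the 8 with CHX, the 16 of both CHX experiments, the 4 Ribo-seq libraries, and Ribo-seq jointly with the first Nrde2 RNA-seq experiment (8 libraries). The study's thresholds were used. With 2 libraries a group an exact permutation test cannot go below 0.333, so none was used. Nothing ties replicates to separate cultures beyond the labels, so p-values measure the spread between these libraries.

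The members, gene lists and rules were chosen with earlier results of these data known. Named besides the members are the targets, up to 3 called genes of a list with the largest log2 fold change, and the 3 genes most correlated with each member. The most abundant genes of a list and those at 0 are named besides this rule, after their values were seen. A gene that the rule names is not reported here. Alternatives were other pseudocounts and filters, CPM as deposited, edgeR 4.0.16 and DESeq2 1.42.0 on the recovered reads, a replicate block, fewer groups and leaving out each library, and, chosen after seeing the data, factors from each fit's libraries. The limma step was tried on simulated counts for a single comparison of each fit, with changes set only in genes well above the filter. The other comparisons, edgeR and DESeq2 were not simulated.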

Additional observations from a re-analysis of the deposited data

Results flagged for a closer look

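The effect of losing MTREX and the effect of losing NRDE2, each against its own WT, differed by the limma test of the difference for 5 members. The Mtrex-KO effect exceeded the Nrde2-KO effect by 2.83 on the log2 scale for Krt7 (SE 0.62, adjusted p = 0.00134), by 2.75 for Krt8 (SE 0.33, adjusted p = 4.34e-06), by 3.78 for Krt18 (SE 0.33, adjusted p = 1.94e-07), by 5.25 for Krt19 (SE 0.58, adjusted p = 1.84e-06) and by 1.84 for Gata2 (SE 0.38, adjusted p = 0.000795). Of all genes tested, 17.4% passed this test upward and 14.1% downward, and Krt7 missed the threshold without replicate 2 of Nrde2-KO (adjusted p = 0.0105). Krt7 was tested only because its Mtrex-KO libraries lifted it over the filter of 0.5 CPM. The 2 conditions also differed in days of 4OHT, 3 d for Mtrex-KO and 4 d for Nrde2-KO, and in the conditional line, and the part of either in the difference was not tested. No member passed the tests of the 5 other differences between effects.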

How the results depend on the processing

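Each member's value was computed again under every alternative, 2200 values in all. Of these, 2156 stayed on their side of the threshold, 37 lost it, 7 gained it and 0 that had passed reversed. In 106 the sign changed where neither value passed, 90 of them on leaving out 1 library. In Mtrex-KO the 7 calls held under every setting that tested the gene; Krt7 was not tested at a minimum of 1 CPM.

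Counts of differentially expressed genes and members moved as follows, and the cause was not tested except that a larger pseudocount shrinks the fold change of low genes by construction. With 1 added before the log there were 398 genes and 1 member in Nrde2-KO (746 and 2 with 0.25), 218 and 0 in Nrde2-d200 (395 and 1), 137 genes in Ccdc174-dTAG (206), and 474 genes and 0 members in the second experiment (720 and 2). With CHX it left 398 genes and 1 member in the libraries labelled Nrde2-KO (707 and 2) and 64 genes in Ccdc174-dTAG (141), and for CHX against none 1343 genes in Nrde2 WT (2133) and 1473 genes and 1 member in Ccdc174 WT (2315 and 2). In Ribo-seq it left 1 member (2). Without a filter on low values there were 256 genes and 0 members in Nrde2-d200, 5 and 0 in Nrde2-D174R (32 and 1), 58 genes in the difference of Ccdc174-dTAG and Nrde2-KO (149), with CHX 1 member in the libraries labelled Nrde2-KO and 49 genes in Ccdc174-dTAG, 16 and 5 genes in the CHX interactions (26 and 11), 561 genes (890) and 1 member in Ribo-seq, and 0 genes (178) in Ribo-seq against RNA-seq. By edgeR Nrde2-d200 had 0 members and the Nrde2 CHX interaction 17 genes. DESeq2 gave 72 genes in Nrde2-D174R, 277 in the difference of Ccdc174-dTAG and Nrde2-KO, 3 in that of the experiments, 58 in the Nrde2 CHX interaction, and 562 genes and 0 members in Ribo-seq. With the compared groups alone Nrde2-D174R had 57 genes and the CHX interactions 8 and 0.

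Leaving out 1 library gave 488 to 599 genes and 0 to 2 members in Nrde2-KO, 137 to 291 genes and 0 to 0 members in Nrde2-d200, 0 to 6 genes and 0 to 0 members in Nrde2-D174R, 116 to 233 genes in Ccdc174-dTAG, 1 to 1 members in the second experiment and 57 to 142 genes in the difference of Ccdc174-dTAG and Nrde2-KO. With CHX it gave 1 to 2 members in the libraries labelled Nrde2-KO and 83 to 113 genes in Ccdc174-dTAG, for CHX in Ccdc174 WT 1 to 2 members, and 5 to 24 and 3 to 18 genes in the interactions. In Ribo-seq it gave 1 to 2 members, and 104 to 185 genes against RNA-seq.

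Same-numbered libraries deviated together unevenly, with correlations from -0.03 in Nrde2-d200 and Ribo-seq to 0.42 in Mtrex-KO over only 2 pairs, so the numbers were not taken to pair samples. With a replicate block 1 gene differed between the experiments (0 without it), the other counts stayed within 1.5 times, with 766 genes in Nrde2-KO, and no call of a member changed. Factors from each fit's own libraries, chosen after seeing the data, changed no member's call. Depth limits the Ribo-seq values of Cdx2, with 3 to 5 reads a library, and of Krt7, with 1 to 7.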
